A study of Macaca mulatta with 26 samples.

Results

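The chromosome 11 circRNA ENSMMUT00000026995, listed by the study as mmu_circ_003723, is an exonic circle of 3 exons found in the vastus lateralis, a large thigh muscle, of Rhesus monkeys. Its locus was taken as every circRNA on the plus strand of chromosome 11 (rheMac2) that overlaps positions 55045847 to 55050896 or carries this transcript name. The locus held 3 circRNAs out of 29112 distinct ones in the series, on 33 of 64900 lines. The circle was chosen by its junction reads in newborn monkeys, so its levels in newborns are described without a test, and tests were run only among monkeys older than 1 year.

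In the initial sequencing, 1 library per monkey was made from RNase R-treated total RNA of 24 animals on normal chow, drawn from a long-running cohort on diet and aging, and sequenced to a nominal depth of 20 M reads. The young (Y) group of the study joins 3 infants aged 0.003, 0.005 and 0.03 years, which are the newborns, with 3 monkeys aged 2.8, 4.06 and 6 years, called young over 1 year here. The middle-aged (MA) group holds 11 monkeys of 11.3 to 16.93 years and the old (O) group 7 monkeys of 25.7 to 40.9 years. A further library from a monkey aged 0.005 years and another from a monkey aged 40.1 years were sequenced in depth, to a nominal 100 M reads. Whether these came from animals already among the 24 is not stated outright, so they are not counted as further animals. The initial libraries carried 822 to 11561 back-splice junction reads (2933 to 7918 in the infants), and the in-depth libraries carried 60704 in the young and 35205 in the old.

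Circular RNAs form when the 5′ splice site at the end of an exon is joined back to the 3′ splice site at the start of the same or an earlier exon, and a read across this back-splice junction marks the circle. With no free ends the circles resist exonucleases such as RNase R, which removes linear RNA, and circRNAs are generally stable molecules. One 5′ splice site can join to different 3′ splice sites, so that a locus can yield circles that share an end and differ in how many exons they hold. The host of these circles is known here only by its transcript name, since none of the 22201 transcript names in the files matched the gene symbol tables. For the same reason, the muscle label could not be checked against marker genes, and nothing is said of what the host gene encodes.

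The 3 circles of the locus are built from 4 exons, labelled a to d here. Exon a spans 55044782 to 55044827 (46 nt), exon b 55045847 to 55045928 (82 nt), exon c 55049000 to 55049137 (138 nt) and exon d 55050813 to 55050896 (84 nt). The main circle joins exons b, c and d into 304 nt. A 4-exon circle adds exon a and measures 350 nt, and a 2-exon circle holds exons c and d only and measures 222 nt. The introns between these exons are 1019, 3071 and 1675 bases long, with 4129 bases before exon a and 3437 bases after exon d. All 3 circles close at the end of exon d, so that they differ only in the exon start to which this end is joined.

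**Figure D1:**
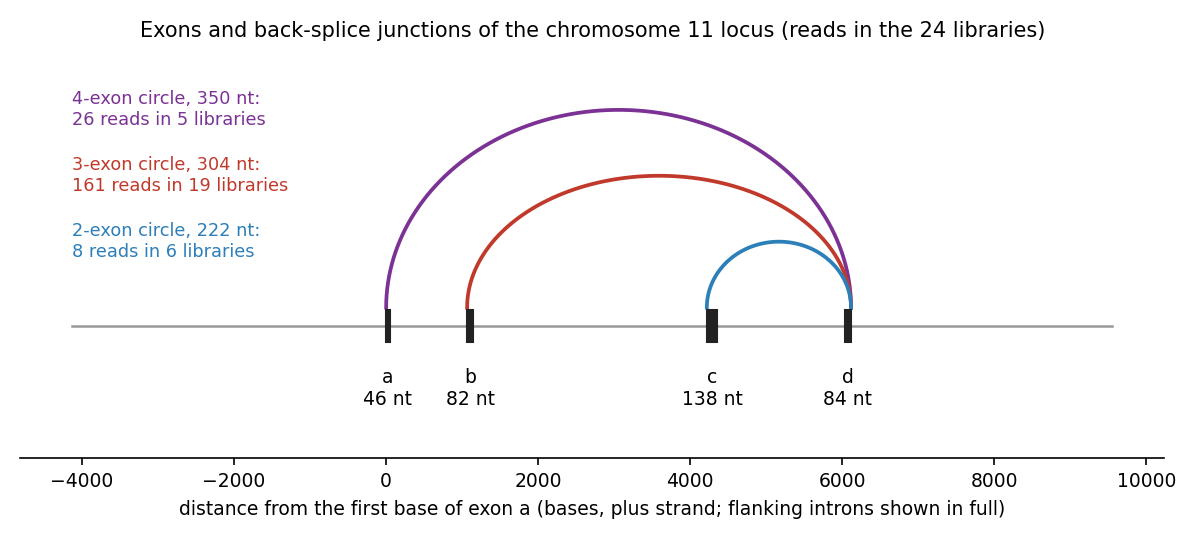
Exons a to d of the locus (boxes) on the plus strand, drawn to scale against the distance in bases from the first base of exon a, with 1 arc for each back-splice junction. The 3 arcs meet at the end of exon d and start at exon a (4-exon circle, 26 reads), exon b (3-exon circle, 161 reads) or exon c (2-exon circle, 8 reads in the 24 libraries).

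Such sharing was uncommon among all exon ends of the series, which were counted whatever their reads. An end with few reads can hardly show several starts, so this background is not matched to the reads of the locus. Among 17518 distinct exon ends that closed an exonic circle, 8.56% were joined to at least 3 different starts and 72.6% to a single start, with 11 starts at most. The start of exon b was joined to no other end. Against 26173 exonic circRNAs, the main circle was shorter than the median, at 304 nt compared with 463 nt, and its 3 exons equalled the median of 3. Intron lengths were compared over the 26006 of these with both flanking introns given. The intron before its first exon, at 1019 bases, was short, as only 10.2% of circRNAs had a shorter one and the median was 5308 bases. The intron after its last exon, 3437 bases, was close to the middle of the range, since 39.7% were shorter. For the 4-exon circle the intron before its first exon was 4129 bases, longer than that of 42.7% of circRNAs.

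Reads are given below as reads per 10000 junction reads of the library. In the infants, the main circle had 12 reads at 0.003 years, 22 reads at 0.005 years and 32 reads at 0.03 years, which corresponded to 40.9, 35.5 and 40.4 reads per 10000. The mean was 38.9 ± 3.01 (SD, n = 3). The 3 values lay close together although the libraries differed in size. Their 95% Wilson intervals overlapped, the widest being 23.4 to 71.4 at 0.003 years. Each interval was wider than the range of the 3 values, so how far the infants differ cannot be told from them. These intervals cover counting error only.

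In the young monkeys over 1 year, the circle had 7 reads at 2.8 years, 1 read at 4.06 years and 2 reads at 6 years, or 11.2, 5.01 and 8.58 reads per 10000, with a mean of 8.28 ± 3.13 (SD, n = 3). Middle-aged monkeys ran from 0 to 29.4 with a median of 4.65 and a mean of 9.44 ± 10.5 (SD, n = 11). Old monkeys ran from 0 to 22.1 with a median of 10.8 and a mean of 10.8 ± 7.59 (SD, n = 7). The range of young over 1 year lay within those of both other groups, and that of old within that of middle-aged. Of the 21 libraries of these 3 groups, 16 held the circle.

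**Figure D2:**
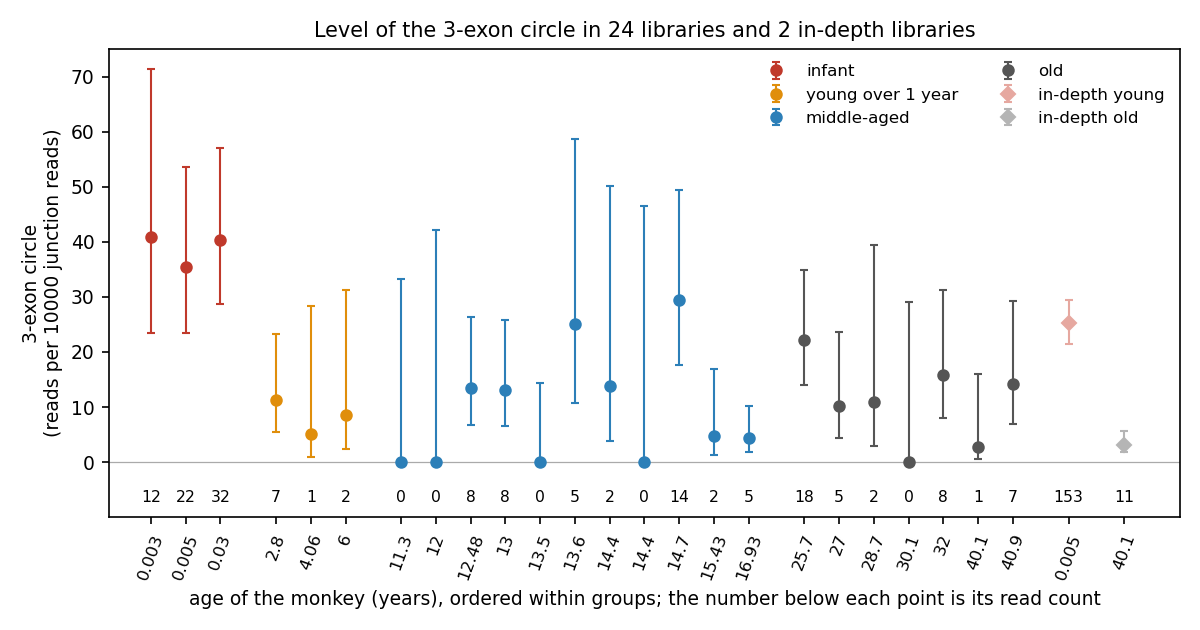
Level of the 3-exon circle in reads per 10000 junction reads (y axis) in each library, ordered by group and age in years (x axis), with 95% Wilson intervals for counting error and the read count under each point. The 3 infants lie between 35.5 and 40.9, above the other 21 libraries, whose highest value is 29.4, and the in-depth young library (diamond) lies at 25.2 against 3.12 in the in-depth old.

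On this scale the lowest infant, at 35.5, stood above the highest of the 21 older monkeys, at 29.4 (a middle-aged monkey of 14.7 years with 14 reads and an interval of 17.5 to 49.4). The mean in infants was 3.997 times that of the 21 older monkeys, 9.74 ± 8.60 (SD, n = 21). It was 4.70 times the mean of the young monkeys over 1 year, 4.13 times that of the middle-aged and 3.59 times that of the old. Of the 218 circRNAs that reached 2 reads in 12 or more libraries, 3 (1.38%) had all infants above every older monkey, and these were picked out after their values were seen. Besides the main circle they were a 7-exon circle on chromosome 4 (53822249 to 53875750, plus strand) and a 4-exon circle on chromosome 15 (50215199 to 50243797, plus strand). By the ratio of infant to older mean the main circle ranked 2 of 218, with 4.18 above it and 3.37 below it, while the median ratio was 0.890. As the circle was chosen on this contrast, none of these values is a test.

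Without scaling to the junction reads, the infants no longer stood apart, since 2 of the 21 older libraries, with 14 and 18 reads, exceeded the 12 reads of the youngest infant. They stayed apart with TMM effective sizes and with DESeq2 size factors. In whole muscle, more of this circle per cell and more cells of a type that makes it cannot be told apart.

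The rank of the circle within its library rests on the same reads and is given as a description, with lists of different length. It ranked 20 of 1539 circRNAs by reads in the infant of 0.003 years, 24 of 2810 at 0.005 years and 21 of 3173 at 0.03 years, ties included. The highest ranks among older monkeys were 34 of 1956 in the middle-aged monkey of 14.7 years and 35 of 3366 in the old monkey of 25.7 years. In the young monkeys over 1 year it ranked 118 of 2542, 307 of 1193 and 168 of 1180, as 1 of 28, 887 and 174 circRNAs with equal reads.

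The sign of the log2 ratio of older to young means depended on whether the infants were counted as young. The 6 young monkeys averaged 23.6 ± 17.01 (SD, n = 6), and their values fell into the 3 infants and the 3 others with no overlap. With all 6, the log2 ratio of the old to the young mean was -1.12, and with only the young monkeys over 1 year it was 0.39. For middle-aged against young, the log2 ratio was -1.32 with the infants and 0.19 without them. These ratios are descriptive, since they contain the contrast that chose the circle. Without the infants, the tests below detected no difference, and its sign turned in some settings.

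Whether the circle changed with age after infancy was tested in a fit of all 24 libraries over the 218 circRNAs, with edgeR's quasi-likelihood test and Benjamini-Hochberg adjustment. For old against middle-aged monkeys the log2 fold change was 0.16 ± 0.58 (SE), and the adjusted p in edgeR was 0.977. In this comparison 0.459% of the 218 circRNAs passed, which was 1 circRNA (11 at an unadjusted p under 0.05), and the main circle was not among them. The one that passed, picked out for this, was a single-exon circle on chromosome 11 from 12601546 to 12601939 on the minus strand, outside the locus. For young monkeys over 1 year against middle-aged, the log2 fold change of the main circle was -0.27 ± 0.84 (SE), and against old it was -0.43 ± 0.86 (SE) (edgeR adjusted p of 0.977 and 0.976). In each of these comparisons 0% of the 218 passed with edgeR, where 13 and 12 had an unadjusted p under 0.05. DESeq2 passed 0, with 15 and 16 at an unadjusted p under 0.05. For old against middle-aged, DESeq2 passed 3, with 25 at an unadjusted p under 0.05. When nothing differs, a share of 0.05 of the tests is expected to have an unadjusted p under 0.05.

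**Figure D3:**
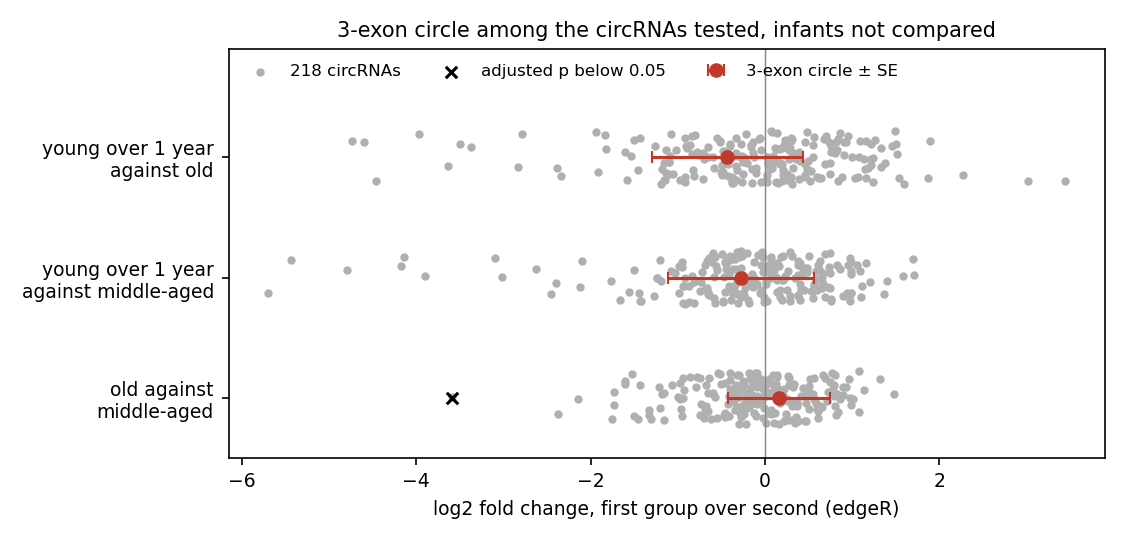
Log2 fold changes from edgeR (x axis) of the 218 circRNAs tested in 3 comparisons among monkeys over 1 year (grey points). The 3-exon circle is in red, with its standard error as a bar. The infants entered the fit but none of the comparisons. The red point lies at 0.16, -0.27 and -0.43 from bottom to top, within 1 standard error of 0 each time, and the cross marks the 1 circRNA with an adjusted p below 0.05.

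The levels themselves were also compared with two-sided exact permutation tests. Old exceeded middle-aged by 1.41 reads per 10000 (p = 0.753, exact permutation over 31824 arrangements). Young over 1 year lay 1.16 below middle-aged, a difference of -1.16 (p = 0.918, exact, 364 arrangements). Against old the difference was -2.57 (p = 0.6, exact, 120 arrangements, where the smallest two-sided p is 0.0167). After Benjamini-Hochberg adjustment over the 3 exact tests, every p was 0.918. With all circles of the locus summed, the differences were 4.78, -2.43 and -7.21 reads per 10000, with exact permutation p of 0.379, 0.786 and 0.383. Each difference was smaller than the SD of both groups compared, except for the locus sum of young over 1 year against old. There, the difference of -7.21 exceeded in size the SD of young over 1 year, 3.13, but not that of old, 12.3. The main circle's difference of old against middle-aged turned to -0.467 reads per 10000 without the old monkey of 25.7 years, and the edgeR value turned to -0.11. That of young over 1 year against middle-aged turned to 0.843 without the middle-aged monkey of 14.7 years (0.0852 in edgeR, log2), to 0.411 without that of 13.6 years and to 0.476 without the young monkey of 4.06 years.

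Across the 21 monkeys over 1 year, the level of the main circle showed no detectable relation to age, with Pearson's r = 0.0647 (permutation p = 0.781) and Spearman's rho = 0.171 (permutation p = 0.455). For the locus sum, r was 0.170 (permutation p = 0.460) and rho 0.247 (permutation p = 0.278), and after adjustment over these 4 relations the lowest permutation p was 0.613. Leaving out the 2 monkeys farthest from the median age gave r = 0.129 for the main circle (n = 19, permutation p = 0.598).

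Low depth limited these comparisons. Of the 21 libraries of monkeys over 1 year, 11 had 3 or fewer reads of the main circle. It had no read in 5 libraries of 822 to 2657 junction reads, in which 3 reads correspond to 11.3 to 36.5 reads per 10000, more than the mean of any group over 1 year, so that 0 reads there does not show that the circle was absent. Of these 5 libraries, 4 were among the 6 smallest of the series.

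The in-depth libraries, which entered none of the group means, fits or tests, gave the main circle 153 reads in the young monkey aged 0.005 years and 11 reads in the old monkey aged 40.1 years. These are 25.2 reads per 10000 (95% Wilson interval 21.5 to 29.5) and 3.12 (1.74 to 5.59), a ratio of 8.07, with 1 library each and no replicates. The initial libraries of the same ages had 22 and 1 reads, or 35.5 (23.4 to 53.6) and 2.82 (0.497 to 15.9) per 10000. For this level of the main circle, the intervals of the 2 depths overlapped at both ages. In rank, the circle stood at 32 of 11947 circRNAs in the in-depth young library and at 488 of 8520 in the in-depth old one.

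The in-depth young library, at 25.2, fell below the 29.4 of the highest older monkey, so that the separation of infants from older monkeys holds for the 24 libraries and not when this library is counted. Relative to the initial library of the same age, its junction reads were 9.79 times as many, and its reads of the main circle were 6.95 times as many. For the old pair the corresponding ratios were 9.92 and 11.

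The main circle took 161 of the 195 reads of the locus in the 24 libraries, or 82.6%, followed by the 4-exon circle with 26 reads (13.3%) and the 2-exon circle with 8 reads (4.10%). At least 1 of the 3 circles was seen in 20 libraries, and the main circle was the only one in 12 of them. Only the main circle reached 2 reads in 12 or more libraries, so the other circles entered no fit.

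The 4-exon circle, which starts at exon a, was found in 5 libraries of the 24. Its mean was 3.41 reads per 10000 in infants, from 3 reads of 1 infant, and 1.82 in the 21 older monkeys, a ratio of 1.87, and no test was run on so few reads. Among the infants it had 3 reads at 0.003 years, beside 12 of the main circle, and 0 reads at 0.005 and 0.03 years. It had no read in the 3 young monkeys over 1 year. Middle-aged monkeys had 2 reads at 13.5 years and 4 reads at 16.93 years, and old monkeys had 9 reads at 25.7 years and 8 reads at 27 years. In the monkey of 27 years the 4-exon circle exceeded the main circle, by 8 reads to 5, and in the monkey of 13.5 years it was the only circle of the locus. It took 4.17% of the locus reads in infants (3 of 72), 0% in young over 1 year (0 of 10), 11.5% in middle-aged (6 of 52) and 27.9% in old monkeys (17 of 61). The old share came from 2 of 7 libraries, and the other 5 had no read of this circle, so no order of the groups can be read from these shares.

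**Figure D4:**
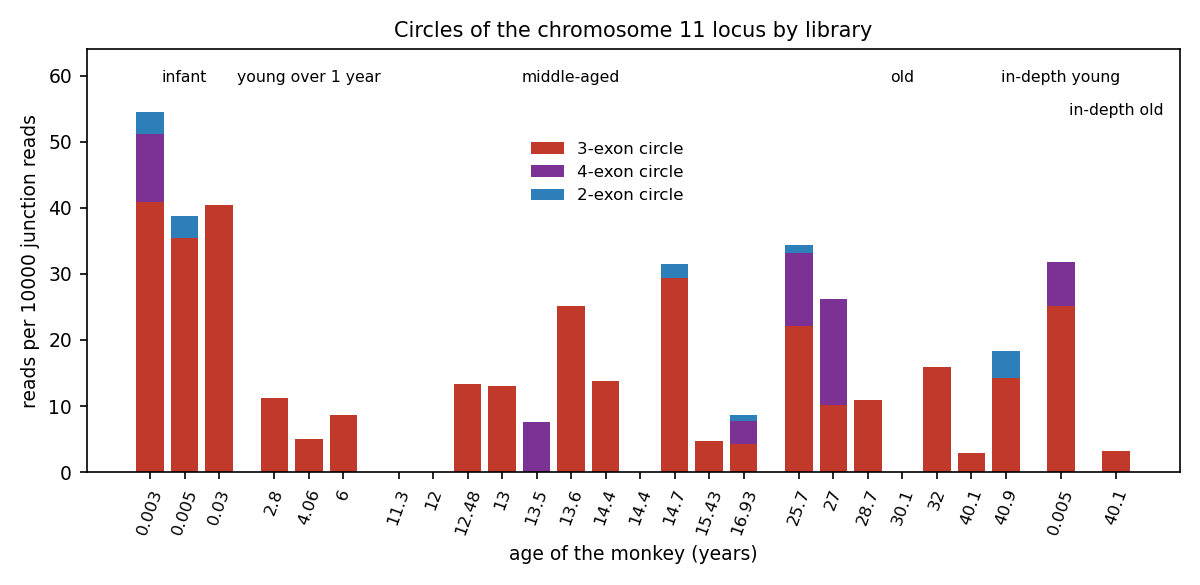
Reads per 10000 junction reads (y axis) of the 3-exon, 4-exon and 2-exon circles, stacked, in each library by group and age in years (x axis), with no error drawn. The 4-exon circle appears in 5 of the 24 libraries and in the in-depth young library, where it took 20.7% of the locus reads.

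In the in-depth young library the 4-exon circle had 40 reads and took 20.7% of the 193 reads of the locus (95% Wilson interval 15.6% to 27.0%). The initial library of the same age had 0 of 24 (95% Wilson interval 0% to 13.8%), an interval that did not overlap that of the in-depth share. In this initial library the level was 0 reads per 10000 (0 to 6.19), where 3 reads correspond to 4.84. This interval overlapped that of the level of 6.59 (4.84 to 8.97) in the in-depth library. The in-depth old library had no read of this circle (95% Wilson interval 0 to 1.09 reads per 10000), and 3 reads there correspond to 0.852 reads per 10000.

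Every line of the 4-exon circle, 6 of 6, carried the caller's flag of 1. The main circle carried it on 7 of 21 lines and the 2-exon circle on 1 of 6, compared with 34.5% of all exonic lines. CIRCexplorer uses this flag for junctions whose position was realigned. Its part in the number of libraries that list the 4-exon circle was not tested.

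The 2-exon circle is the only one of the 3 whose length, 222 nt, is a multiple of 3. It was seen with 1 or 2 reads in 6 libraries, which were the infants of 0.003 and 0.005 years, the middle-aged monkeys of 14.7 and 16.93 years and the old monkeys of 25.7 and 40.9 years. It had no read in either in-depth library, where 3 reads correspond to 0.494 (young) and 0.852 (old) reads per 10000, whereas its 2 reads in the infant of 0.005 years were 3.22 per 10000.

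The transcript named for these circles was the same on 31 of 33 lines. In the young monkey of 4.06 years and the middle-aged monkey of 12.48 years the main circle was assigned instead to transcripts assembled from the reads, PREDICTED.5259.2 and PREDICTED.9333.2, with the same 3 exons. For the latter, the intron after exon d was given as 1422 bases in place of 3437, so that the next exon of the host was placed nearer in this library.

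The circRNAs whose levels followed the main circle most closely over the 24 libraries, by Pearson's r of log2(reads per 10000 + 1), lay on other chromosomes. The highest r was 0.723, for a 2-exon circle on chromosome 10 (30146641 to 30147991, minus strand), which averaged 12.0 ± 4.77 (SD, n = 3) in infants and 4.86 ± 4.25 (SD, n = 21) in the others. It was followed by a 3-exon circle on chromosome 8 (63376335 to 63382718, plus strand) with r = 0.718, a 2-exon circle on chromosome 2 (129553931 to 129555366, minus strand) with r = 0.651, a 3-exon circle on chromosome 4 (167548272 to 167554069, minus strand) with r = 0.637 and a single-exon circle on chromosome 14 (117183236 to 117183702, minus strand) with r = 0.612. The median r of all 217 circRNAs was 0.122, and the values of a library share its depth. The infants, whose reads chose the main circle, entered these values of r. Without the infants, the 5 circRNAs ranked 5, 4, 3, 2 and 14, and a circRNA not named here had the highest r, 0.733. In infants the circle on chromosome 14 averaged 3.25 times the mean of the others, whereas that on chromosome 4 averaged 0.767 times. By Pearson's r, likeness over all libraries was therefore not the same as a high level in infants. By Spearman's rho these 5 ranked 1, 2, 35, 83 and 3. The 2 that fell, on chromosomes 2 and 4, had infant ratios of 1.23 and 0.767. The 3 that ranked first, on chromosomes 10, 8 and 14, had ratios of 2.46, 2.02 and 3.25.

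Within 1000000 bases of the main circle, 41 further circRNAs were listed, 35 of them on the minus strand, the nearest 127213 bases away. A total of 27 had reads in the 24 libraries, 17 of them a single read. Only 1 of the 41 reached 2 reads in 12 or more libraries. This 3-exon circle at 54132012 to 54136037 on the minus strand (ENSMMUT00000027808) averaged 16.9 ± 6.07 (SD, n = 3) in infants and 6.40 ± 10.8 (SD, n = 21) in the older monkeys, and its 68 reads included 26 from the infants. It reached 2 reads in exactly 12 libraries, and all 3 infants held it, so the infant libraries counted toward its passing. Its higher infant mean is therefore a description and not a test.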

How the data were processed

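CircRNA sequencing was performed on RNase R-treated total RNA, in 1 library per monkey. Per the authors' methods and processing notes, reads were aligned to rheMac2 with TopHat2 (2.0.14, Bowtie2 2.2.4), reads left over were searched for fusion junctions, linear RNA was assembled with Cufflinks (2.2.1), and circRNAs were called with CIRCexplorer. The authors deposited raw counts of junction reads per circRNA, without normalization, beside a flag of each call. A circRNA not listed for a library was given 0, although it may have been missed by the caller.

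The members, lists and tests were chosen with earlier results of these data known. A circRNA was a junction with its type and exon structure. Infants were separated by the ages in the labels. Counts were tested with edgeR 4.0.16 (R 4.3.3; total junction reads as library size; infant, young over 1 year, middle-aged and old in one fit; no covariates) over the 218 circRNAs that reached 2 reads in 12 or more of 24 libraries. The standard error is the log2 fold change divided by the square root of F. Levels were tested with exact permutation, and correlations with 100000 permutations (scipy 1.17.1, numpy 2.4.6). The edgeR script was tested on simulated data. The circRNAs named were those of the locus, the 5 most alike and those nearby past the read minimum. Nothing says whether monkeys were related, and p-values set the differences and relations against the spread between these animals. In edgeR this spread was estimated from all 24 libraries, infants included. Sequences are not given, since no genome was used here. Coordinates count from 1.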

Additional observations from a re-analysis of the deposited data

Results flagged for a closer look

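Among the 7 old monkeys, 1 value stood apart from the rest of its group. The 2-exon circle had 4.06 reads per 10000 junction reads in the monkey of 40.9 years, from 2 reads, while the monkey of 25.7 years had 1 read and the other 5 had none. How often chance alone would mark a value in this way cannot be given, because 5 of the 7 libraries had no read of this circle. The same check was also made for the other circles and the locus sum in old monkeys, and the marked value rests on 2 reads.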

How the results depend on the processing

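For the main circle, 63 alternative fits with edgeR or DESeq2 and 57 alternative exact permutation tests were computed, and none passed the threshold (adjusted p 0.935 to 1, exact permutation p 0.333 to 1). They covered normalization, read minimum, exon structures summed, groups in the fit, a log2 scale, small libraries and each library left out. The sign turned in 2 edgeR fits and 6 exact tests. Leaving out 1 library gave edgeR log2 ranges of -0.11 to 0.52 for old against middle-aged and -0.61 to 0.0852 for young over 1 year against middle-aged, and exact test differences of -0.467 to 3.41 and -2.64 to 0.843 reads per 10000. Young over 1 year against old, -0.43 in edgeR and -2.57 reads per 10000, came to -0.15 and -0.691 without the old monkey of 25.7 years and to -0.77 and -4.05 without the young monkey of 2.8 years, and to -4.38 reads per 10000 without the old monkey of 30.1 years. On the log2 scale, young over 1 year exceeded middle-aged by 0.78 and old by 0.0820. The circRNAs called between old and middle-aged numbered 1, but 0 with TMM, equal library sizes, a minimum of 10 reads in total or without the 6 smallest libraries, and 3 with DESeq2. Leaving out 1 library gave 0 to 3 (0 without the middle-aged monkey of 14.7 years or the old monkeys of 27 or 32 years, 2 without that of 25.7 and 3 without that of 40.1 years). For young over 1 year against middle-aged, 3 were called with a minimum of 10 reads in total and 0 to 1 with 1 library left out (1 without the monkey of 13.6 or 14.7 years or either of 14.4 years), and against old 0 to 1 (1 without that of 40.1 years). TMM moved the median log2 fold change of all circRNAs from -0.09 to 0.12 for old against middle-aged and from 0.05 to -0.11 for young over 1 year against old, and the main circle from 0.16 to 0.40 and from -0.43 to -0.62. The ratio of infants to older monkeys, 3.997, was 4.86 without scaling, 4.33 with DESeq2 size factors and 3.25 without the 6 smallest libraries. With Spearman's rho, 3 of the 5 circRNAs most like the main circle stayed among the first 5. The cause of these shifts was not tested. No paired analysis was possible because the labels tie no monkeys of different groups to each other.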
